A study of Rattus norvegicus with 32 samples.

Results

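The transcripts described here encode actin and actin-binding proteins, myosins, annexins, tubulins, keratins and other intermediate filament proteins in the hippocampus of a rat model of Alexander disease (AxD), a leukodystrophy caused by mutations in the astrocyte intermediate filament protein GFAP. The members were chosen by symbol: a pattern of family names (for example Act, Tpm, Fln, Myo, Tub, Krt and Anxa) was matched to the symbols in the study's 4 lists of differentially expressed genes, and 50 of the 23822 gene identifiers in the count table carried such a symbol. Of these, 22 were actin or actin-binding genes, 14 myosins, 5 annexins, 5 intermediate filament genes and 4 tubulins. Symbols were known only for the 3289 identifiers on those lists, so cytoskeletal genes that no list held were not among the members, and the number of members that changed says nothing of the families as a whole. Each of the 4 lists came from 1 comparison of genotypes. A member was therefore counted in a comparison only if a list made from other rats also held it, and for the remainder values are given without a test.

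The study sequenced poly(A)-selected RNA from whole hippocampus of 32 rats on the outbred Crl:CD(SD) background. Rats were either heterozygous for the Gfap point mutation (Gfap+/R237H, hereafter R237H) or wild type (WT), and the study's methods describe them as littermates. At postnatal day 21 (P21) there were 4 R237H and 4 WT males, and 5 R237H and 3 WT females. At postnatal day 56 (P56) there were 4 rats of each genotype in each sex. The mutation is carried in the germline by every cell, and the samples hold all cell types of the hippocampus, so that more or fewer cells of a type and more or less RNA per cell cannot be told apart.

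Actin filaments form the cortex beneath the cell membrane, and they are nucleated by the Arp2/3 complex, bundled by actinins, plastins and filamins, stabilised by tropomyosins and calponins, linked to the membrane by ezrin and moesin, and pulled by myosins. Microtubules are built from pairs of α- and β-tubulin, whose isotypes differ between neurons and other cells. Intermediate filaments are the third system: astrocytes hold GFAP, vimentin and, when immature or reactive, nestin, and keratins belong to epithelia. Annexins bind membrane lipids in the presence of calcium, and several also bind actin.

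Libraries held between 21580397 and 55544871 estimated counts, with a median of 46157271. Values per rat are given as CPM, the usual library-scaled counts, adjusted by the trimmed mean of M-values (TMM) over the 32 rats. TPM, transcript levels that take account of transcript length, are used to compare levels between genes within WT rats, to sum choroid plexus markers and to rank genes by their mean over all rats. Fold changes between genotypes were not taken from TPM, because at P56 the 20 most abundant genes took 44.8% of the TPM in WT males and 30.8% in R237H males, and the median gene's log2 TPM differed by 0.40. Gfap itself was at 493.0 to 1080 CPM in the WT rats and at 3120 to 6990 CPM in the R237H rats, with no overlap between the genotypes. In 5 libraries markers of the choroid plexus, an epithelium in the ventricle beside the hippocampus, summed to over 500 TPM (WT male P56 replicate 2, R237H male P56 replicate 4, R237H female P56 replicate 4, WT male P21 replicate 1 and WT female P21 replicate 3), and calls that change without them are given.

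Most members were higher in R237H than in WT rats at both ages and in both sexes, and 6 members, among them 2 of the 4 tubulins, were lower. In males at P56, 31 of the 45 members counted increased and 2 decreased at a false discovery rate (FDR) under 0.01 (edgeR, quasi-likelihood test, Benjamini-Hochberg over all genes tested), where 16.8% and 11.1% of the 15097 genes tested did so (27.9% in either direction). In females at P56, 31 of 48 increased and 6 decreased, against 17.0% and 11.1% of all genes (28.1% in either direction). In males at P21, 32 of 45 increased and 3 decreased, against 12.4% and 4.82% (17.2% in either direction). In females at P21, 25 of 47 increased and 0 decreased, against 7.06% and 0.753% (7.82% in either direction), and 36 of the 47 had an unadjusted p under 0.05. DESeq2 gave 1 decreased in that comparison. With the number in the rats' titles as a replicate block, 13 increased in females at P21 and 3 decreased in females at P56. All 50 members passed the filter on low counts in each comparison, Krt32 only through its R237H rats. Myo1g in males at P21 and Krt18 in males at P56 also needed their R237H rats to pass, because 1 WT rat fell short. The members' median log2 fold change (R237H over WT) was 1.34 (males) and 1.43 (females) for the P56 rats and 0.99 (males) and 0.84 (females) for the P21 rats. The median over all genes tested lay between -0.034 and -0.006, and over all genes with a symbol it was 0.92, 0.89, 0.45 and 0.49 in the same order. Genes with a symbol had been listed as changed in at least 1 comparison, so the second background is the nearer one. By the same counting rule as for the members, 59.5%, 59.9%, 53.7% and 34.4% of genes with a symbol increased and 17.0%, 20.9%, 10.7% and 3.24% decreased. For increases the members' shares lie nearer to these than to the shares of all genes.

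Across the 4 comparisons 23 members increased in every one, 10 increased in 1 to 3 and were called in no other direction, and 6 decreased in at least 1. The other 11 were called in none of the comparisons where they were tested. By class, 11 of 22 actin and actin-binding members, 4 of 14 myosins, 4 of 5 annexins, 2 of 5 intermediate filament members and 2 of 4 tubulins increased in all 4. Of all 14734 genes tested throughout, 5.99% increased in all 4, and of the 3167 with a symbol 27.4% did, beside 46.0% of the members. Krt32 and Myo1g are among the 23, and these counts come from the fit without the title number as a block. The rats' values did not overlap between genotypes for 35 of 45 members counted in males at P56, 42 of 48 in females at P56, 38 of 45 in males at P21 and 31 of 47 in females at P21. Among all genes tested those shares were 42.0%, 40.9%, 30.0% and 21.5%. The share over genes with a symbol, the nearer background for members taken from lists of changed genes, was not computed.

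**Figure D1:**
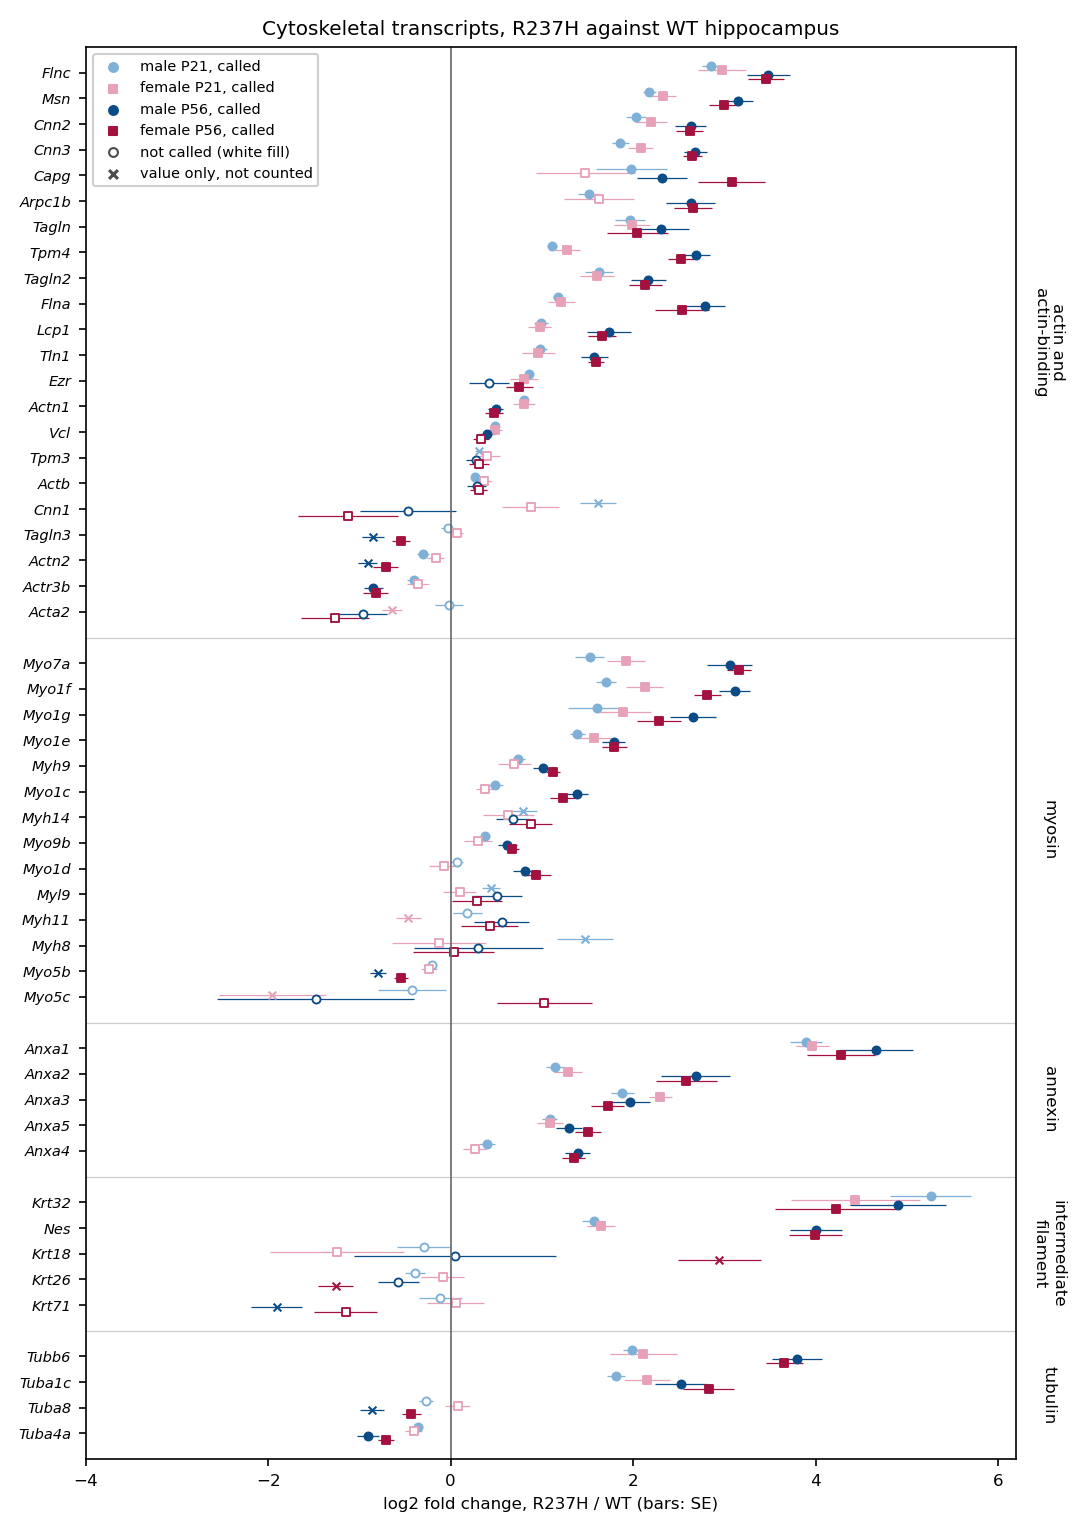
Log2 fold change (R237H over WT, horizontal axis, bars are standard errors) of each of the 50 members in the 4 comparisons, grouped by class and ordered within a class by the median. Filled symbols were called at FDR under 0.01, open ones were not, and crosses mark comparisons whose own list was the only one to hold the member. The symbols of Flnc, Msn, Anxa1, Nes and Tubb6 lie to the right of 0 in all 4 comparisons, and those of Tuba4a and Actr3b to the left.

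Of the actin filament itself, Actb (β-actin) was the most abundant member by far, with 1831 ± 26.3 TPM (mean ± SD, n = 4) in WT males at P21. At P21 it was at 1887, 1833, 1804 and 1823 CPM in WT rats and 2109, 2170, 2227 and 2315 CPM in R237H rats among males, and at 1667, 1770 and 1670 CPM in WT rats and 2395, 2263, 2098, 2230 and 1928 CPM in R237H rats among females. At P56 males had 1775, 1719, 1502 and 2094 CPM in WT rats and 1981, 2095, 2094 and 2305 CPM in R237H rats, and females had 1718, 1596, 1870 and 1718 CPM in WT rats and 1942, 2098, 2173 and 2409 CPM in R237H rats. The genotypes overlapped only among males at P56. The fold changes were small, from 1.204 to 1.29, and one was called, in males at P21 (log2 fold change 0.27 ± 0.047, SE, FDR = 0.00115). RSEM divides reads that fit several transcripts, so part of this value depends on how reads shared with the near-identical γ-actin were assigned.

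The crosslinker Flnc (filamin C), known chiefly from striated muscle, rose most of the actin-binding members. Males at P56 had 14.97, 21.6, 13.4 and 12.9 CPM in WT rats and 186, 152, 126 and 229.9 CPM in R237H rats, and females had 16.1, 14.98, 18.6 and 13.4 CPM in WT rats and 133, 206, 139 and 224 CPM in R237H rats. At P21 males had 12.9, 14.2, 16.7 and 16.8 CPM in WT rats and 119.8, 113, 99.1 and 104 CPM in R237H rats, and females had 18.3, 16.4 and 10.6 CPM in WT rats and 83.7, 159.9, 132, 119 and 96.9 CPM in R237H rats. The lowest R237H rat was more than 4 times the highest WT rat in each comparison. Flnc increased 11.2-fold and 11.01-fold in males and females at P56 (log2 fold changes 3.48 ± 0.24 and 3.46 ± 0.20, FDR = 3.8e-06 and 6.8e-07), and 7.23-fold and 7.87-fold at P21. The widely expressed Flna (filamin A) increased in all 4 comparisons too, by 2.79, 2.54, 1.18 and 1.22 on the log2 scale in males and females at P56 and males and females at P21. The order of values is the same in all lists of 4 that follow. Actn1 (α-actinin 1), another crosslinker, increased by 0.50, 0.47, 0.80 and 0.80, and its call in males at P56 was lost without the choroid-marked libraries (log2 fold change 0.48, FDR = 0.0141).

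Msn (moesin) ties actin to the plasma membrane. At P56 it was at 40.4, 41.4, 42.7 and 37.4 CPM in WT rats and 384, 338, 252 and 433 CPM in R237H rats among males and at 51.1, 37.0, 40.6 and 47.9 CPM in WT rats and 327, 384, 272 and 438 CPM in R237H rats among females. At P21 it was at 40.0, 40.7, 40.9 and 42.3 CPM in WT rats and 195, 204, 176 and 166 CPM in R237H rats among males and at 37.6, 40.2 and 41.0 CPM in WT rats and 149, 212, 223, 191 and 212 CPM in R237H rats among females. The WT rats of both ages lay between 37.0 and 51.2 CPM, whereas R237H rats at P21 began at 149.4 CPM and those at P56 at 252.3 CPM. Msn increased by 3.15 ± 0.17, 2.99 ± 0.17, 2.18 ± 0.07 and 2.33 ± 0.14 (FDR between 1.6e-09 and 4.4e-06). The related Ezr (ezrin) differed by less, with log2 fold changes of 0.42, 0.75, 0.86 and 0.81, and was not called in males at P56 (FDR = 0.152). In females at P21 the call for Ezr was lost without the choroid-marked WT library, with a log2 fold change of 0.85 (FDR = 0.0147).

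Calponins stabilise actin filaments and damp myosin. Cnn3 (acidic calponin), the brain form, was at 126, 153, 138 and 153 CPM in WT rats and 945, 887, 746 and 1024 CPM in R237H rats in males at P56, and at 164, 137, 138 and 137 CPM in WT rats and 971, 943, 781 and 948 CPM in R237H rats in females. At P21 the males showed 132, 124, 119 and 123 CPM in WT rats and 536, 474, 397 and 397 CPM in R237H rats, and females had 112, 122 and 131 CPM in WT rats and 429, 584, 591, 484 and 465 CPM in R237H rats. No rat of one genotype came near the other, and Cnn3 increased 6.43-fold, 6.27-fold, 3.63-fold and 4.24-fold (FDR at most 6.1e-06). Cnn2 (calponin 2), the non-muscle form, was less abundant, at 7.86 ± 0.413 TPM in WT males at P21 against 139 ± 5.77 TPM for Cnn3. The males at P56 showed 6.08, 8.34, 6.49 and 6.75 CPM in WT rats and 44.1, 34.3, 38.1 and 52.2 CPM in R237H rats, and females had 6.96, 6.04, 7.11 and 6.80 CPM in WT rats and 35.9, 40.8, 36.7 and 53.6 CPM in R237H rats. Males at P21 had 7.56, 8.30, 7.42 and 8.16 CPM in WT rats and 40.1, 29.5, 28.5 and 29.8 CPM in R237H rats, and females had 6.68, 9.46 and 6.99 CPM in WT rats and 31.1, 41.2, 39.5, 34.3 and 28.9 CPM in R237H rats. Cnn2 increased by 2.63 ± 0.17, 2.62 ± 0.14, 2.03 ± 0.11 and 2.19 ± 0.17 on the log2 scale. Among the calponin-like transgelins, Tagln (SM22α) increased by 2.31, 2.05, 1.97 and 1.99, and Tagln2 by 2.17, 2.14, 1.62 and 1.60.

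Serum response factor drives many actin and calponin genes through the CArG box, whose middle holds only A and T, and the promoters of the members were searched for it because so many of them moved together. RefSeq promoter windows (build GRCr8, 250 bases before to 50 bases after the start) were matched by symbol for 43 of the 50 members, in 48 windows. Within the 250 bases before the start, a CArG box lay in 2 of the members' 48 windows, those of Cnn2 and Myo1e, and in 1.5% of all 33469 windows. Both stretches are shown with the box in capitals.
Cnn2, chr7:10370349-10370408, minus strand: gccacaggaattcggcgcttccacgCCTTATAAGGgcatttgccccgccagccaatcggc
Myo1e, chr8:79768707-79768766, plus strand: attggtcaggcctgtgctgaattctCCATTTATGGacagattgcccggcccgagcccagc
The box began 71 bases before the start of Cnn2 and 96 bases before that of Myo1e, a myosin described further on that also increased in all 4 comparisons. A match in letters is a description of the window, and binding was not measured. Only the strict box was searched, so members without a match may hold looser boxes or boxes farther from the start.

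Other actin-binding members that increased take part in nucleation, capping, bundling and adhesion. Arpc1b, an Arp2/3 subunit, differed by 2.63, 2.65, 1.52 and 1.63, with no call in females at P21 (FDR = 0.0174). The capping protein Capg differed by 2.32, 3.08, 1.98 and 1.48, again with no call in females at P21 (FDR = 0.113). Lcp1 (L-plastin), a bundling protein of leukocytes and microglia, increased by 1.74, 1.66, 0.99 and 0.98. Tln1 (talin 1), which links integrins to actin, increased by 1.57, 1.59, 0.98 and 0.96. Its partner Vcl (vinculin) differed by 0.39, 0.33, 0.48 and 0.48, and was called in all but females at P56 (FDR = 0.0135). Without the choroid-marked libraries Vcl was not called in males at P56 or females at P21 either, with log2 fold changes of 0.40 and 0.48 (FDR = 0.0192 and 0.0145), and Tln1 was not called in females at P21 (0.86, FDR = 0.0238). Of the tropomyosins, Tpm4 increased by 2.69, 2.52, 1.11 and 1.28, whereas Tpm3, the more abundant in WT rats, differed by 0.28, 0.31 and 0.40 in the comparisons that could be tested, with no call.

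**Figure D2:**
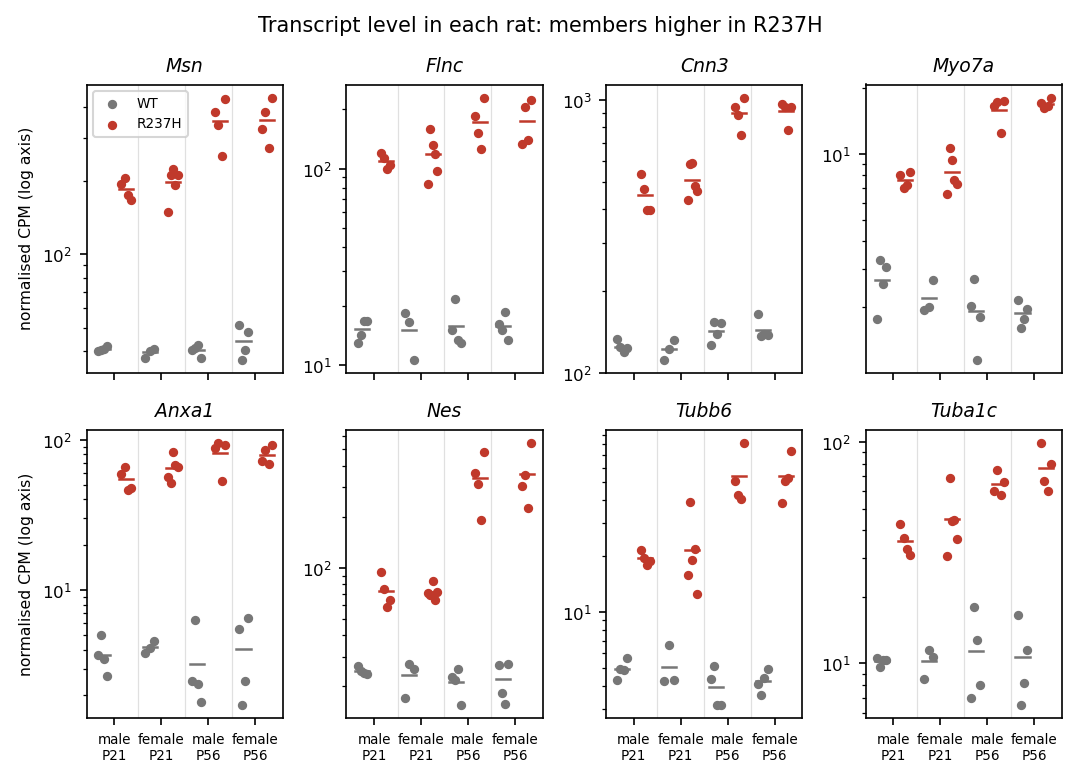
Normalised CPM (vertical axes, log scale) of 8 members in each of the 32 rats, by sex and age, with WT in grey, R237H in red and group means as lines. The genotypes do not overlap in any panel, and the R237H rats at P56 lie above those at P21 for Nes, where P21 values run from 58.7 to 93.8 CPM and P56 values from 191.7 to 542.2 CPM.

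3 actin-binding members decreased. Tagln3 (NP25), the neuronal transgelin, was the exception in its family. Females at P56 had 272, 248, 284 and 244 CPM in WT rats and 201, 175, 188 and 162 CPM in R237H rats, and Tagln3 decreased there to 0.687 times the WT level (log2 fold change -0.54 ± 0.10, FDR = 0.00115). Among P56 males there were 281, 239.5, 301 and 358 CPM in WT rats and 166, 150.1, 169.9 and 155 CPM in R237H rats, a comparison whose own list was the only one to hold the gene, so no test is given for the log2 fold change of -0.85. At P21 the genotypes overlapped, with 235, 229, 211 and 213 CPM in WT rats and 256, 203, 209 and 202 CPM in R237H rats among males and 201, 208 and 206 CPM in WT rats and 227, 218, 206, 214 and 202 CPM in R237H rats among females. Actr3b, the brain form of the Arp2/3 subunit ARP3, differed by -0.84, -0.82, -0.41 and -0.36. It was called in all but females at P21 (FDR = 0.0825), opposite in direction to Arpc1b of the same complex. Actn2 (α-actinin 2), found at dendritic spines, decreased in females at P56 (log2 fold change -0.71, FDR = 0.00222) and in males at P21 (-0.30, FDR = 0.00344). It was not called in females at P21 (-0.16), and no test is given for the -0.91 in males at P56, whose list chose it.

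Acta2 and Cnn1, genes of vascular smooth muscle, were called in none of the comparisons tested. No test is given where their only list chose them. The log2 fold changes there were -0.641 for Acta2 in females at P21 and 1.615 for Cnn1 in males at P21. For Acta2 the log2 fold changes were -0.96 in males at P56 (FDR = 0.0138), -1.27 in females at P56 (FDR = 0.0196) and -0.019 in males at P21, where it was 0.079 without the choroid-marked library. The WT females at P56 spread widely, at 70.1, 17.7, 29.5 and 63.8 CPM, while the R237H females lay at 23.5, 19.4, 17.7 and 15.5 CPM. The same 2 WT females were also the highest of their group for Cnn1, at 2.93 and 3.38 CPM, and for Tagln, at 65.8 and 66.7 CPM. Unlike Acta2, Tagln lay higher in every R237H rat than in every WT rat of the same sex and age.

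Of the 14 myosins 8 increased in at least 1 comparison and 1 decreased. The motors that tie membranes to actin, the class I myosins, made up 5 of the 8. By comparison 8 of 13, 8 of 14, 7 of 11 and 4 of 12 counted myosins increased. Among genes with a symbol counted in the same way 59.5%, 59.9%, 53.7% and 34.4% did so. Myo1f, a long-tailed form of leukocytes, was at 4.59, 5.37, 3.48 and 4.52 CPM in WT rats and 34.2, 43.8, 43.2 and 32.2 CPM in R237H rats in males at P56 and at 5.67, 3.91, 5.40 and 5.25 CPM in WT rats and 33.4, 34.5, 41.9 and 34.0 CPM in R237H rats in females. Among males at P21 were 4.90, 5.73, 5.83 and 5.61 CPM in WT rats and 20.6, 18.9, 14.7 and 17.1 CPM in R237H rats, and females had 5.35, 5.09 and 4.83 CPM in WT rats and 14.4, 26.0, 25.7, 23.7 and 20.7 CPM in R237H rats. Its increase was 8.67-fold, 7.04-fold, 3.25-fold and 4.37-fold, with no overlap of genotypes. Myo1g, a short-tailed form of blood cells, was scarce. Males at P56 had 0.294, 0.470, 0.301 and 0.481 CPM in WT rats and 2.198, 2.40, 2.48 and 2.59 CPM in R237H rats, and females had 0.346, 0.293, 0.493 and 0.416 CPM in WT rats and 1.71, 1.998, 2.14 and 1.81 CPM in R237H rats. The P21 males had 0.173, 0.462, 0.339 and 0.425 CPM in WT rats and 1.10, 0.746, 1.58 and 0.984 CPM in R237H rats, and females had 0.309, 0.303 and 0.499 CPM in WT rats and 0.844, 1.66, 1.38, 1.51 and 1.39 CPM in R237H rats. Myo1g increased by 2.66 ± 0.25, 2.28 ± 0.24, 1.61 ± 0.32 and 1.89 ± 0.31, and in females at P21 the call was lost when either WT replicate 1 or WT replicate 2 was left out, with log2 fold changes of 1.78 and 1.77. Myo1e increased by 1.79, 1.80, 1.39 and 1.58. Myo1c and Myo1d increased at P56, by 1.39 and 1.23 for Myo1c and by 0.82 and 0.94 for Myo1d. At P21 Myo1c increased in males (0.48) and was not called in females (0.38), while Myo1d stood at 0.068 and -0.074 with no call.

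Myo7a, the myosin of hair cell stereocilia, also rose. The males at P56 showed 2.03, 2.68, 1.15 and 1.80 CPM in WT rats and 16.4, 17.2, 12.4 and 17.4 CPM in R237H rats, and females had 2.17, 1.61, 1.77 and 1.97 CPM in WT rats and 17.1, 16.2, 16.4 and 18.04 CPM in R237H rats. At the earlier age males had 1.77, 3.28, 2.54 and 3.04 CPM in WT rats and 7.99, 7.02, 7.24 and 8.24 CPM in R237H rats, and females had 1.95, 2.01 and 2.65 CPM in WT rats and 6.55, 10.7, 9.34, 7.57 and 7.26 CPM in R237H rats. The change was 8.35-fold and 8.92-fold at P56 and 2.88-fold and 3.80-fold at P21, called in all 4 comparisons. Myh9, the heavy chain of non-muscle myosin IIA, was the most abundant of the class II heavy chains among the members per transcript length, at 25.04 ± 2.89 TPM in WT males at P21. At P56 it was at 117, 158, 121 and 146 CPM in WT rats and 247, 279, 272 and 277 CPM in R237H rats among males and at 121, 129, 138 and 128 CPM in WT rats and 291, 283, 270.1 and 291 CPM in R237H rats among females. At P21 it was at 100.4, 114, 123 and 129 CPM in WT rats and 213, 174, 189.9 and 195 CPM in R237H rats among males and at 112, 120.1 and 98.9 CPM in WT rats and 152, 249, 190.1, 157 and 141 CPM in R237H rats among females. Myh9 was higher in every R237H rat than in any WT rat of its group pair, with a 2.02-fold increase in males and a 2.18-fold increase in females at P56. At P21 it increased 1.66-fold in males, and its 1.62-fold difference in females was not called (FDR = 0.0283).

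Myo9b, a class IX myosin, was at 95.6, 93.9, 84.2 and 116 CPM in WT rats and 151, 145, 155 and 137 CPM in R237H rats in males at P56 and at 95.7, 95.2, 98.7 and 82.3 CPM in WT rats and 146, 153, 148 and 149.7 CPM in R237H rats in females. At P21 males had 91.3, 97.2, 98.2 and 104 CPM in WT rats and 131, 116, 126 and 132 CPM in R237H rats, and females had 101, 109.8 and 77.6 CPM in WT rats and 108, 146, 123, 116 and 96.8 CPM in R237H rats. It increased 1.54-fold, 1.59-fold and 1.30-fold in the first 3 comparisons and was not called in females at P21 (FDR = 0.256), where the genotypes overlapped. The regulatory light chain Myl9 of smooth muscle showed no call in the comparisons tested. In males at P21, whose list chose it, no test is given for the log2 fold change of 0.44. Its values were 15.4, 36.1, 15.3 and 17.9 CPM in WT rats and 29.9, 26.0, 26.9 and 36.0 CPM in R237H rats in males at P56 and 25.8, 12.3, 21.2 and 34.6 CPM in WT rats and 22.9, 25.3, 29.5 and 38.3 CPM in R237H rats in females. At P21 they were 20.6, 17.4, 16.7 and 19.96 CPM in WT rats and 25.8, 20.7, 27.3 and 27.5 CPM in R237H rats in males and 18.2, 23.5 and 17.1 CPM in WT rats and 20.9, 18.9, 27.8, 20.5 and 15.9 CPM in R237H rats in females. The highest WT male at P56 was the choroid-marked library, and without the choroid-marked libraries Myl9 was called in males at P56 (log2 fold change 0.80 ± 0.14, FDR = 0.00284). Myo5b, a carrier of recycling vesicles, decreased in females at P56 (log2 fold change -0.55, FDR = 0.00027). It was not called at P21 (-0.21 in males and -0.24 in females), and no test is given for the -0.80 in males at P56, whose list chose it. Myh8, Myh11 and Myh14 were called in none of the comparisons tested, with log2 fold changes there between -0.13 and 0.88. Where their only list chose them the untested values were 1.473 for Myh8 and 0.791 for Myh14 in males at P21, and -0.463 for Myh11 in females at P21.

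All 5 annexins increased in at least 3 of the 4 comparisons. By comparison 59.5%, 59.9%, 53.7% and 34.4% of genes with a symbol, counted in the same way, increased. Anxa1, known as a mediator that limits inflammation, had the largest fold change of the class. Among P56 males there were 2.48, 6.30, 2.36 and 1.80 CPM in WT rats and 87.3, 94.9, 52.9 and 92.5 CPM in R237H rats, and females had 5.46, 1.71, 2.49 and 6.52 CPM in WT rats and 71.8, 85.0, 69.3 and 92.1 CPM in R237H rats. Males at P21 had 3.71, 4.99, 3.45 and 2.67 CPM in WT rats and 59.3, 65.5, 46.3 and 47.4 CPM in R237H rats, and females had 3.82, 4.14 and 4.60 CPM in WT rats and 56.6, 51.4, 82.4, 68.0 and 65.5 CPM in R237H rats. The lowest R237H rat, at 46.3 CPM, was far above the highest WT rat, at 6.52 CPM. Anxa1 increased 25.4-fold, 19.4-fold, 14.9-fold and 15.6-fold (log2 fold changes 4.67 ± 0.40, 4.28 ± 0.37, 3.90 ± 0.18 and 3.96 ± 0.18).

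Anxa2, which joins actin to membranes as a complex with S100A10, was at 8.97, 25.03, 9.78 and 7.38 CPM in WT rats and 82.3, 81.4, 59.2 and 104 CPM in R237H rats in males at P56 and at 16.5, 7.26, 7.76 and 19.7 CPM in WT rats and 56.7, 86.6, 64.9 and 102 CPM in R237H rats in females. At P21 the males showed 18.8, 14.5, 15.3 and 16.1 CPM in WT rats and 36.0, 40.5, 33.2 and 32.5 CPM in R237H rats, and females had 16.3, 14.2 and 17.3 CPM in WT rats and 35.7, 35.4, 47.0, 43.2 and 31.1 CPM in R237H rats. It increased by 2.69 ± 0.38, 2.58 ± 0.34, 1.14 ± 0.10 and 1.29 ± 0.15. The WT male at P56 with 25.03 CPM was the choroid-marked library, and all R237H rats at P56 lay above it. AP-1 is a factor of Fos and Jun proteins, and its site is TGACTCA, or TGAGTCA on the other strand. The site lay within 250 bases before a start in 3 of the members' 48 windows (Anxa2, Myh9 and Myo1c) and in 4.05% of all windows. That of Anxa2, the member of the 3 with the largest fold changes, began 123 bases before the start and is shown in capitals.
Anxa2, chr8:78986104-78986160, plus strand: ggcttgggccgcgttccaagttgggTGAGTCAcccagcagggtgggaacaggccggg

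Anxa3 was, with Anxa5, the most abundant annexin among the members in WT rats per transcript length, at 39.0 ± 6.51 and 53.5 ± 2.54 TPM in WT females at P56. Anxa3 was at 41.8, 41.5, 40.7 and 49.2 CPM in WT rats and 141, 192, 230.2 and 104 CPM in R237H rats in males at P56 and at 51.8, 38.2, 40.9 and 54.1 CPM in WT rats and 163, 134, 201 and 119 CPM in R237H rats in females. Among males at P21 were 35.4, 36.2, 35.1 and 31.1 CPM in WT rats and 124, 165, 112 and 106 CPM in R237H rats, and females had 31.1, 31.1 and 34.7 CPM in WT rats and 129, 163, 184, 161 and 149.7 CPM in R237H rats. Its fold changes of 3.92, 3.31, 3.69 and 4.92 were all called, and a difference between ages was not called for Anxa3 by the interaction test described further on (FDR = 0.884 in males and 0.141 in females). Anxa5, which binds phosphatidylserine, was at 40.4, 54.2, 66.9 and 58.5 CPM in WT rats and 134, 140.0, 128 and 130.1 CPM in R237H rats in males at P56 and at 46.6, 51.8, 54.0 and 46.6 CPM in WT rats and 184, 149, 123 and 116 CPM in R237H rats in females. At P21 it was at 29.97, 27.3, 29.4 and 27.6 CPM in WT rats and 69.3, 63.1, 54.1 and 54.7 CPM in R237H rats in males and at 33.3, 30.3 and 30.6 CPM in WT rats and 55.8, 84.8, 69.8, 60.9 and 59.3 CPM in R237H rats in females. It increased 2.46-fold, 2.85-fold, 2.12-fold and 2.12-fold. Anxa4 increased by 1.39 and 1.35 at P56 and by 0.40 in males at P21, with no call in females at P21 (0.26, FDR = 0.228).

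Nes (nestin), an intermediate filament of neural progenitors and reactive astrocytes, increased in all 4 comparisons. Males at P56 had 22.8, 21.9, 25.3 and 15.5 CPM in WT rats and 362, 312, 192 and 482 CPM in R237H rats, and females had 26.8, 18.2, 15.8 and 27.3 CPM in WT rats and 302, 354, 226 and 542 CPM in R237H rats. The P21 males had 26.5, 24.5, 24.1 and 23.8 CPM in WT rats and 93.8, 74.9, 58.7 and 64.4 CPM in R237H rats, and females had 17.1, 27.1 and 25.4 CPM in WT rats and 70.8, 68.8, 84.0, 64.8 and 72.1 CPM in R237H rats. The WT rats of both ages lay between 15.5 and 27.3 CPM, under every R237H rat. The increase was 16.02-fold in males and 15.98-fold in females at P56 (log2 fold changes 4.00 ± 0.28 and 4.00 ± 0.29, FDR = 5.2e-06 and 3.5e-06), and 2.96-fold and 3.13-fold at P21.

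Of the 4 keratins only Krt32, a hair keratin, was called in the comparisons tested with all rats. The males at P56 showed 0.0210, 0.0587, 0.0251 and 0 CPM in WT rats and 0.854, 0.8005, 1.18 and 0.694 CPM in R237H rats, and females had 0.0922, 0, 0.0448 and 0.0231 CPM in WT rats and 1.01, 0.768, 1.203 and 0.288 CPM in R237H rats. At the earlier age males had 0.0216, 0.0231, 0.0212 and 0.0193 CPM in WT rats and 1.34, 0.680, 1.02 and 0.664 CPM in R237H rats, and females had 0.0884, 0 and 0 CPM in WT rats and 0.744, 0.462, 0.554, 0.992 and 0.845 CPM in R237H rats. These are few reads, with at most 4 counts in any WT rat and between 15 and 22 in the lowest R237H rat of each comparison. Summed over rats, 174 counts in R237H against 5 in WT males at P56 gave a ratio of 33.0 (95% interval 13.9 to 103.0, exact, counting error only), and the ratios were 19.8 (9.38 to 50) in females at P56, 43.0 (16.4 to 160.0) in males at P21 and 22.9 (8.77 to 84.9) in females at P21. The test across rats called Krt32 in all 4 comparisons (FDR = 6.3e-05, 0.00061, 3e-06 and 0.00177). Krt32 passed the filter on low counts only through the R237H rats, where it is high, so these calls add no support to the counts themselves. In females at P21 all 4 WT counts came from 1 rat, and the log2 fold change ran from 3.856 to 8.07 with 1 rat left out.

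Krt18, a keratin of simple epithelia such as the choroid plexus, was highest in choroid-marked libraries. Among P56 males there were 0.294, 7.38, 0.301 and 0.168 CPM in WT rats and 1.71, 1.60, 0.615 and 4.71 CPM in R237H rats, and females had 0.346, 0.391, 0.224 and 0.347 CPM in WT rats and 2.12, 1.17, 1.91 and 4.99 CPM in R237H rats. Males at P21 had 1.25, 0.924, 0.551 and 0.5996 CPM in WT rats and 0.783, 0.549, 0.742 and 0.641 CPM in R237H rats, and females had 0.287, 0.238 and 3.34 CPM in WT rats and 0.824, 0.378, 0.363, 0.518 and 0.540 CPM in R237H rats. In each of the 5 groups that held a choroid-marked library, that rat was the highest of its group. With all rats Krt18 was not called in males at P56 (log2 fold change 0.046 ± 1.10), and without the choroid-marked libraries it was (2.37 ± 0.49, FDR = 0.00758). With or without those libraries, Krt18 passed the filter on low counts there only with its R237H rats. In females at P21 the value went from -1.25 to 0.99 without WT replicate 3, with no call either way, and in males at P21 from -0.30 to -0.026. In females at P56, where only that comparison's own list held the gene, the 3 R237H rats without the markers were at 2.12, 1.17 and 1.91 CPM and the WT rats at no more than 0.391 CPM. Myo5c, a myosin of secretory epithelia, followed the same libraries, with 17.1 CPM in the choroid-marked WT male at P56 and at most 0.88 CPM in the other 3, and with 9.85 CPM in the choroid-marked WT female at P21. Its log2 fold change in males at P56 went from -1.48 to 0.76 without those libraries, with no call in either case, and in males at P21 from -0.43 to 0.18, likewise with no call.

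**Figure D3:**
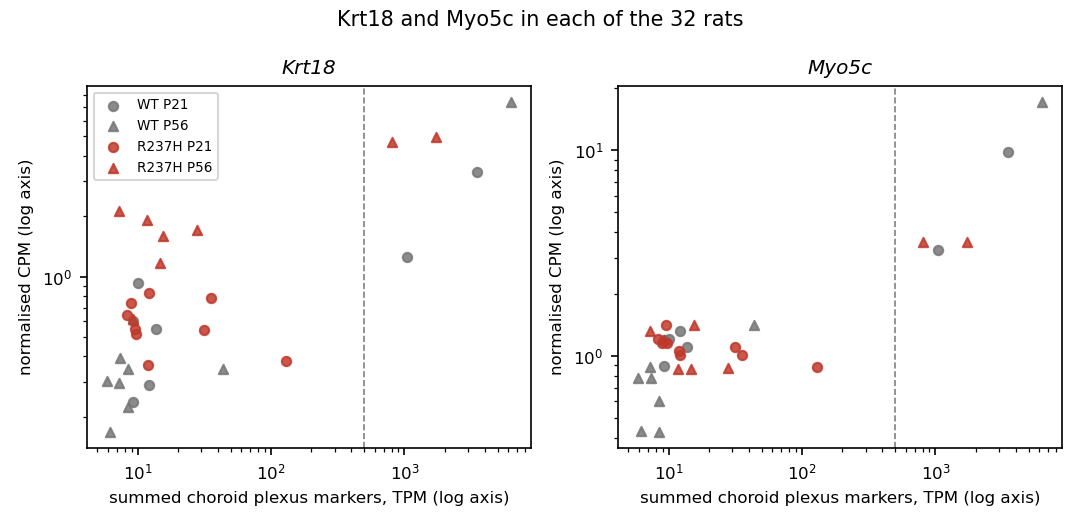
Normalised CPM of Krt18 and Myo5c in each of the 32 rats (vertical axes, log scale) against the summed TPM of choroid plexus markers (horizontal axis, log scale), with WT in grey, R237H in red, circles for P21 and triangles for P56. The dashed line marks 500 TPM, and the 5 libraries to its right hold the 5 highest values of Myo5c. Below it, the 6 R237H rats at P56 span 0.615 to 2.13 CPM of Krt18 and the 7 WT rats 0.168 to 0.391 CPM.

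The remaining keratins, Krt26 and Krt71, are hair follicle keratins and each was on 1 list only. Krt26 was at 7.95, 6.11, 8.77 and 4.73 CPM in WT rats and 4.67, 4.66, 5.38 and 3.43 CPM in R237H rats in males at P56 and at 9.63, 6.74, 8.83 and 10.8 CPM in WT rats and 3.19, 3.86, 4.75 and 3.36 CPM in R237H rats in females. At P21 males had 6.65, 7.51, 7.14 and 6.34 CPM in WT rats and 4.36, 5.84, 5.61 and 5.29 CPM in R237H rats, and females had 5.42, 4.16 and 6.88 CPM in WT rats and 6.73, 3.32, 5.22, 5.66 and 4.60 CPM in R237H rats. It was not called in the comparisons tested (FDR = 0.062, 0.0213 and 0.871 in males at P56, males at P21 and females at P21), and in females at P56, whose list chose it, the log2 fold change was -1.26. Krt71 was at 1.66, 0.960, 1.504 and 1.71 CPM in WT rats and 0.363, 0.348, 0.461 and 0.329 CPM in R237H rats in males at P56 and at 1.36, 1.12, 1.44 and 1.29 CPM in WT rats and 0.311, 0.499, 1.03 and 0.499 CPM in R237H rats in females. At P21 the males showed 0.713, 0.786, 0.784 and 0.580 CPM in WT rats and 0.895, 0.636, 0.603 and 0.481 CPM in R237H rats, and females had 0.685, 0.801 and 0.499 CPM in WT rats and 0.844, 0.651, 0.502, 0.947 and 0.493 CPM in R237H rats. The genotypes did not overlap at P56 and did at P21. In females at P56 its log2 fold change of -1.15 ± 0.34 was not called (FDR = 0.0203), but it was when R237H replicate 3 was left out (-1.58). In males at P56, whose list chose it, the value was -1.91.

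The 4 tubulins split into 2 that rose and 2 that fell. Tubb6, a minor β-tubulin, was at 4.32, 5.13, 3.13 and 3.15 CPM in WT rats and 51.1, 42.6, 40.6 and 81.4 CPM in R237H rats in males at P56 and at 4.10, 3.54, 4.39 and 4.92 CPM in WT rats and 38.9, 50.7, 52.5 and 73.9 CPM in R237H rats in females. Among males at P21 were 4.28, 4.95, 4.85 and 5.61 CPM in WT rats and 21.4, 19.4, 17.96 and 18.8 CPM in R237H rats, and females had 4.24, 6.65 and 4.28 CPM in WT rats and 15.8, 39.2, 19.0, 21.9 and 12.5 CPM in R237H rats. The genotypes were apart in every comparison. Tubb6 increased 13.9-fold and 12.6-fold at P56 (FDR = 5.5e-06 and 6.1e-07) and 3.96-fold and 4.32-fold at P21 (FDR = 3.1e-08 and 0.00297). In females at P21 the call was lost without WT replicate 1 or WT replicate 3, the second of them choroid-marked, with log2 fold changes of 2.0 in both cases (FDR = 0.0156 without the choroid-marked one). Tuba1c, an α-tubulin of dividing and non-neuronal cells, was at 6.96, 17.9, 12.7 and 7.95 CPM in WT rats and 60.4, 75.0, 57.7 and 65.8 CPM in R237H rats in males at P56 and at 16.5, 6.47, 8.12 and 11.5 CPM in WT rats and 99.1, 66.4, 60.0 and 79.6 CPM in R237H rats in females. At P21 it was at 10.6, 9.59, 10.4 and 10.3 CPM in WT rats and 42.7, 37.0, 32.9 and 30.9 CPM in R237H rats in males and at 8.51, 11.5 and 10.6 CPM in WT rats and 30.5, 68.8, 44.1, 44.5 and 36.6 CPM in R237H rats in females. It increased by 2.52 ± 0.28, 2.83 ± 0.28, 1.82 ± 0.10 and 2.15 ± 0.25. Its near-identical relatives Tuba1a and Tuba1b are far more abundant in brain as a rule, and how RSEM split shared reads could not be checked here.

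Tuba4a, an α-tubulin of mature neurons and mutated in some forms of amyotrophic lateral sclerosis, was the most abundant tubulin among the members, at 525 ± 16.1 TPM in WT males at P21. Males at P56 had 586, 588, 524 and 762 CPM in WT rats and 328, 296, 353 and 315 CPM in R237H rats, and females had 566, 531, 644 and 545 CPM in WT rats and 358, 348, 375 and 332 CPM in R237H rats. The P21 males had 632, 618, 577 and 594 CPM in WT rats and 499, 423, 468 and 493 CPM in R237H rats, and females had 596, 621 and 583 CPM in WT rats and 513, 447, 395, 462 and 429 CPM in R237H rats. Every R237H rat lay under every WT rat of its sex and age. Tuba4a decreased to 0.535 and 0.612 times the WT level in males and females at P56 and to 0.780 times in males at P21 (log2 fold changes -0.90 ± 0.12, -0.71 ± 0.091 and -0.36 ± 0.059). In females at P21 the value of -0.41 ± 0.091 just missed the threshold (FDR = 0.013). Tuba8, another α-tubulin, was at 48.9, 53.2, 58.1 and 74.0 CPM in WT rats and 36.0, 31.7, 30.9 and 27.9 CPM in R237H rats in males at P56 and at 52.4, 57.3, 54.1 and 49.1 CPM in WT rats and 46.6, 35.4, 39.8 and 37.7 CPM in R237H rats in females. At P21 males had 36.1, 32.7, 33.7 and 34.2 CPM in WT rats and 32.2, 26.1, 27.7 and 27.0 CPM in R237H rats, and females had 30.7, 30.1 and 24.1 CPM in WT rats and 33.3, 34.8, 27.4, 26.8 and 26.0 CPM in R237H rats. It decreased in females at P56 (-0.43 ± 0.10, FDR = 0.00735), but this call was lost when any of 7 of the 8 rats was left out in turn and without the choroid-marked library (-0.40, FDR = 0.0236). At P21 it was called in neither sex.

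**Figure D4:**
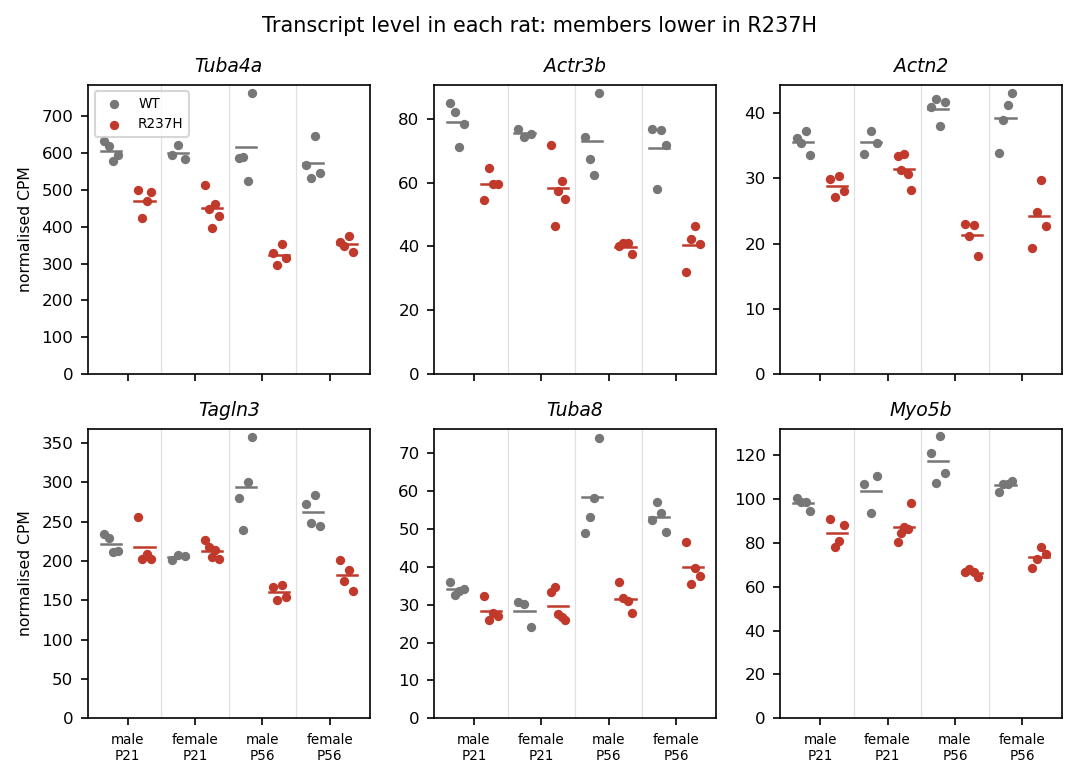
Normalised CPM (vertical axes, from 0) of the 6 members that decreased in at least 1 comparison, in each of the 32 rats by sex and age, with WT in grey, R237H in red and group means as lines. In Tuba4a the R237H rats at P56 lie between 296.3 and 374.6 CPM and the WT rats between 523.6 and 762.2 CPM, and in Tagln3 the genotypes overlap at P21 and are apart at P56.

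To ask whether the genotype difference was unlike at the 2 ages, the interaction of age and genotype was tested within each sex, counting only members that a list of the other sex held. The rats of the 2 ages were different animals whose titles follow different schemes, so that age and any batch cannot be told apart. In males the log2 fold change (R237H over WT) was higher at P56 than at P21 for 11 of 40 members and lower for 1, against 5.81% and 4.31% of all genes (10.1% in either direction) and 23.5% and 9.56% of genes with a symbol counted in the same way. The members with higher values were Nes, Tubb6, Flna, Tpm4, Myo7a, Myo1f, Anxa4, Msn, Myo1c, Cnn3 and Myo1d, and Tuba4a, whose decrease was the deeper at P56, had the lower one. The difference between ages was 2.42 ± 0.31 on the log2 scale for Nes (FDR = 9.4e-05), 1.79 ± 0.28 for Tubb6 (FDR = 0.00047), 1.56 ± 0.15 for Tpm4 (FDR = 7.1e-06) and -0.57 ± 0.14 for Tuba4a (FDR = 0.00875). In females 5 of 45 had a higher value at P56 and 1 a lower one, against 1.49% and 0.658% (2.15% in either direction) and 6.98% and 3.07% of genes with a symbol. The 5 became 8 by the likelihood ratio test and 10 by DESeq2. These members were Nes (2.36 ± 0.33, FDR = 0.00066), Tpm4 (1.25 ± 0.19, FDR = 0.00133), Myo7a, Anxa4 and Myo1c, and Tagln3 (-0.60 ± 0.11, FDR = 0.00538). Without the choroid-marked libraries the female calls for Myo7a, Anxa4, Myo1c and Tagln3 were lost, with FDR from 0.0145 to 0.037, and those for Nes and Tpm4 kept. In males Cnn3 and Tuba4a were lost (FDR = 0.0111 and 0.0256), and Anxa2, Arpc1b and Tln1 were gained.

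**Figure D5:**
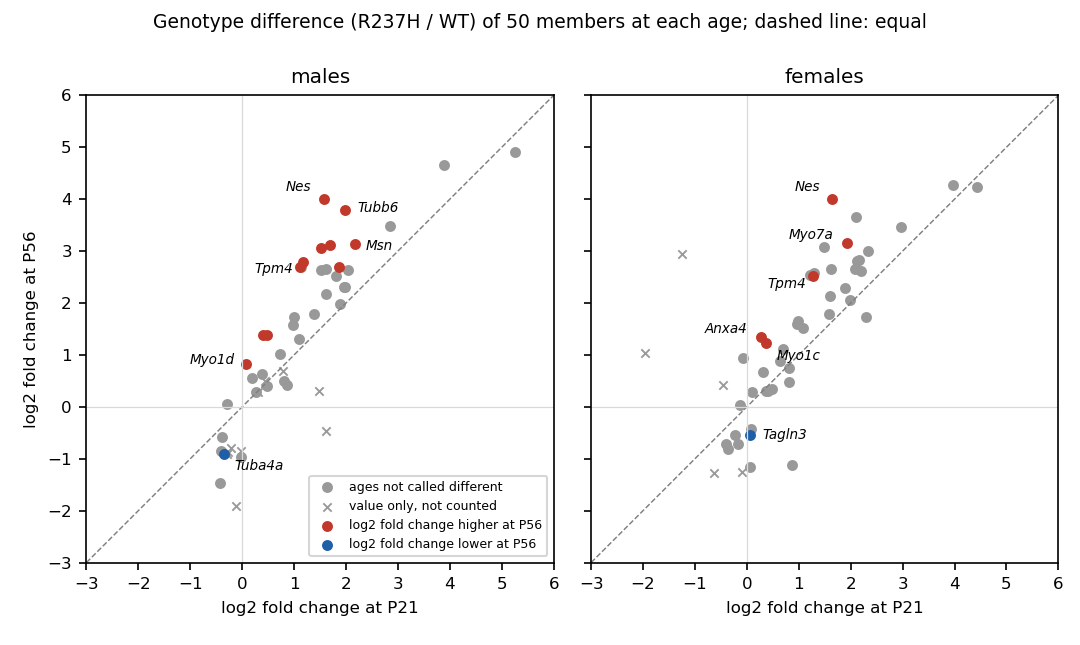
Log2 fold change (R237H over WT) at P21 (horizontal axis) and P56 (vertical axis) of the 50 members, males on the left and females on the right, with the dashed line at equal values. Red and blue points mark members whose log2 fold change was higher or lower at P56 in the interaction test, and crosses mark members not counted there. Nes lies farthest above the line among the red points in both panels, at 1.57 and 4.00 in males and 1.65 and 4.00 in females.

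No difference between the sexes in the response to genotype was detected. The interaction of sex and genotype called 0 of 38 members at P21 and 0 of 41 at P56, and 0.0% of all genes at either age. With edgeR, 2 of the 38 members had an unadjusted p under 0.05 at P21 and 0 of the 41 at P56, and DESeq2 also called 0 at both ages. With 3 to 5 rats in a group, a difference between the sexes could go undetected.

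For 15 members a single list was the ground of choice, and these lie nearest to the threshold of the rule. In the comparison that chose them their log2 fold changes ran from 0.31 for Tpm3 and 0.44 for Myl9, the smallest increases, to 2.94 for Krt18, and from -0.46 for Myh11, the smallest decrease, to -1.95 for Myo5c. In the other comparisons, where they could be tested, 11 of the 15 were called nowhere, and Actn2, Myo5b, Tagln3 and Tuba8 were called in 1 or 2. Genes just outside the rule have no symbol in the files used and are not named here.

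Other genes of the same pathways were taken from lists, again only where a symbol was known, which favours genes that changed. Of 53 other regulators of actin 23 had a symbol, and 17, 17, 17 and 9 of those tested increased in the 4 comparisons, with medians of 0.98, 0.91, 0.52 and 0.54. Among all tested genes with a symbol, 1868 of 3251, 1945 of 3249, 1709 of 3192 and 1062 of 3241 increased. Decreases among them numbered 694, 710, 460 and 113. Vil1, counted among the 17 at P56, had at most 0.176 CPM in WT rats there. It passed the filter on low counts only with its R237H rats. Of the 4 most abundant, Pfn1 (profilin 1, which feeds actin monomers to growing ends) stood at 0.075, 0.67, 0.56 and 0.71 and was called in males at P21 alone. The other three were Tmsb4x (thymosin β4, which holds actin monomers), at 0.63, 0.72, 0.37 and 0.64, the severing protein Gsn (gelsolin), at 2.74, 3.02, 0.67 and 0.87, and Wasf1. Tmsb4x was not called in males at P21 (FDR = 0.0149), nor Gsn in females at P21 (FDR = 0.0252). Wasf1, the neuronal activator of Arp2/3, decreased in males at P56 (log2 fold change -0.86, FDR = 0.000302). It was not called in females at P56 (-0.55, FDR = 0.0164) or at P21 (-0.12 in males and -0.039 in females). Myocd, the one coactivator of serum response factor with a symbol among 6 genes of that list, increased at P56 by 2.69 and 2.41 with a mean of 0.195 TPM over the 32 rats. At P21 it was not called in males (1.08, FDR = 0.0402) or females (0.69, FDR = 0.369). The lowest WT male and female at P56 had 0.125 and 0.0733 CPM of Myocd. It passed the filter on low counts there only with its R237H rats.

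The intermediate filaments of other classes changed in opposite directions. Of 14 such genes 7 had a symbol, and 3 increased and 3 decreased at P56 in each sex. Bfsp2, among those that increased, had at most 0.252 CPM in WT rats at P56. It passed the filter on low counts there only with its R237H rats. Vim (vimentin) increased by 5.06, 4.71, 3.79 and 3.95, and Gfap by 2.85, 2.89, 2.53 and 2.89. The neurofilament genes Nefl and Nefm decreased at P56. Their log2 fold changes (males first) were -1.02 and -0.82 for Nefl and -0.91 and -0.79 for Nefm. Of 37 genes of microtubule-associated proteins 7 had a symbol, and 1, 1, 1 and 1 increased while 4, 5, 4 and 0 decreased. Stmn2 and Stmn3, stathmins of neurons, decreased at P56. On the log2 scale Stmn2 stood at -0.48 (males) and -0.38 (females), and Stmn3 at -0.93 and -0.79.

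Markers of several cell types moved with genotype in the same libraries. Of 12 microglial markers with a symbol (of 13), 10, 10, 12 and 10 increased, and their summed level was 483.0 to 707.0 CPM in WT rats and 1130 to 2910 CPM in R237H rats. All 4 leukocyte and macrophage markers with a symbol (of 11) increased in every comparison, from sums of 44.8 to 72.7 CPM in WT to 104.0 to 245.0 CPM in R237H rats. Members known from those cells, Lcp1, Arpc1b, Capg, Myo1f and Myo1g, moved with them, and the part of a change in cell number was not tested. Neuronal markers (3 of 12 with a symbol) summed to 747.0 to 1200 CPM in WT rats at P56 and 367.0 to 700.0 CPM in R237H rats at P56, and to 732.0 to 795.0 and 600.0 to 912.0 CPM at P21, beside the decreases of Tuba4a, Tagln3, Actn2 and Actr3b, and their part in those decreases was not tested either. Astrocyte markers (8 of 10) summed to 3490 to 5100 CPM in WT and 6360 to 9480 CPM in R237H rats (Gfap is one of them), and 1, 1, 3 and 1 of the 8 increased while 3, 3, 4 and 3 decreased. Neither the mural cell markers (2 of 9) nor, with 1 exception in each sex at P21, the meningeal markers (6 of 8) were called. The choroid plexus markers (9 of 10) ranged from 5.7 to 2050 CPM in WT and from 6.54 to 495.0 CPM in R237H rats, and of those tested 1 was called, in females at P56. The single endothelial marker with a symbol (of 8) decreased in all 4 comparisons, the 4 erythroid markers (of 5) decreased at P56, the single oligodendrocyte marker (of 11) increased in males at P56 and decreased in males at P21, and no ependymal marker (of 8) had a symbol. Each list with a symbol summed to above 0 in every rat.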

How the data were processed

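Hippocampal RNA from 32 rats was sequenced by the authors, whose methods and processing notes name bcl2fastq 2.20.0.422, Skewer, STAR and RSEM. The genome build is not given in the sources used here. The authors deposited RSEM expected counts and TPM per gene and rat. Of the expected counts, 5.68% were not whole numbers and were rounded here. Totals ran from 21580397 to 55544871 (median 46157271) expected counts per rat.

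Genotypes were compared within each sex and age with edgeR 4.0.16 (R 4.3.3; filterByExpr, TMM, quasi-likelihood F-test), with Benjamini-Hochberg adjustment over all genes tested and calls at FDR under 0.01. The standard error is the log2 fold change divided by the square root of F. Interactions of age or sex with genotype used the same test, and DESeq2 1.42.0 was an alternative. Nothing in the labels says more of how replicates were obtained than that they are separate rats, and p-values measure the spread between them. The edgeR quasi-likelihood fit of genotype was tested on simulated counts for males at P56 and females at P21. The interaction fits and the alternative settings were not tested in that way. Members were named with every rat's value if among the 3 most abundant by mean TPM, or the 3 with the largest median log2 fold change, of their class. The members, gene lists and tests were chosen with earlier results of these data known. Symbols came from the study's lists of changed genes, whose fold changes and p-values were not used. Tables and plots used Python 3.11.15, pandas 2.3.3, numpy 2.4.6 and matplotlib 3.10.9. Promoter windows were RefSeq's (GRCr8). One further gene list is not reported here.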

Additional observations from a re-analysis of the deposited data

Results flagged for a closer look

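Among 175 groups of 4 or 5 rats in which the members with every rat's value were examined, 10 held a rat that stood apart from the others by Dixon's test, about as many as the 1 in 20 that chance gives. In 4 of the 10 it was the choroid-marked WT male at P56 (replicate 2), with Anxa1 at 6.305 CPM, Anxa2 at 25.03 CPM, Krt18 at 7.382 CPM and Myl9 at 36.13 CPM, where the next WT male had 2.475, 9.777, 0.3008 and 17.85 CPM. Another WT male at P56 had Anxa3 at 49.21 CPM. One R237H male at P21 was the highest of its group for both Cnn2, at 40.07 CPM, and Tagln3, at 255.6 CPM. One R237H female at P56 had the lowest Cnn3 of its group, at 781.2 CPM, and the highest Myo1f, at 41.94 CPM, and 1 WT female at P56 had Cnn3 at 163.8 CPM.

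The genotype difference was unlike at the 2 ages by the interaction test (edgeR, FDR under 0.01) for 12 of 40 members in males and 6 of 45 in females. Of all genes tested, 10.1% and 2.15% were called. Of genes with a symbol counted in the same way, 23.5% had a higher and 9.56% a lower log2 fold change at P56 in males. The female shares were 6.98% and 3.07%. In males the log2 fold change at P56 exceeded that at P21 by 2.416 for Nes, 1.787 for Tubb6, 1.588 for Flna, 1.563 for Tpm4, 1.516 for Myo7a, 1.399 for Myo1f, 0.972 for Anxa4, 0.944 for Msn, 0.882 for Myo1c, 0.803 for Cnn3 and 0.731 for Myo1d, and for Tuba4a the difference was -0.567. In females it exceeded that at P21 by 2.358 for Nes, 1.249 for Tpm4, 1.241 for Myo7a, 1.093 for Anxa4 and 0.858 for Myo1c, and for Tagln3 the difference was -0.602. Whether an age difference in one sex differed from that in the other was not tested.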

How the results depend on the processing

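Of 126 counts of calls recomputed under other settings, 106 stayed within 1.5 times the reported count and 20 moved. With 1 rat left out, 161 stayed and 31 moved. Both figures include the counts of the sex interaction, which were 0 in the main fit, where no gene at all was called. The title number as a replicate block left 3 decreased members in females at P56 and 13 increased ones in females at P21. The deviations of same-numbered rats correlated by -0.024 to 0.209 (mean 0.055) in males at P56 and 0.082 to 0.424 (mean 0.253) in females at P56. In females at P21 they correlated by 0.001 to 0.341 (mean 0.133). Rats with different numbers had means of -0.016, -0.037 and -0.033 in the same order, with highest values of 0.298, 0.226 and 0.19. Same-numbered rats were thus more alike on average, and whether they are related was not tested. Males at P21 share 1 number. In males at P21 the decreased members numbered 5 by the likelihood ratio test, 6 by DESeq2, 1 in a model of all 32 rats and 6 at FDR under 0.05. In females at P21 there was 1 decreased member by the likelihood ratio test, DESeq2, DESeq2's size factors, the model of all rats and FDR under 0.05. In males, members with a lower log2 fold change at P56 than at P21 numbered 0 without a count filter, 3 by DESeq2, 4 at FDR under 0.05 and 0 without the choroid-marked libraries, a setting chosen after seeing the data. In females, higher ones numbered 8 by the likelihood ratio test, 10 by DESeq2, 11 at FDR under 0.05 and 2 without the choroid-marked libraries, where lower ones numbered 0.

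With 1 rat left out, increased and decreased members numbered 30 to 33 and 2 to 3 in males at P56, 30 to 32 and 5 to 6 in females at P56, 30 to 32 and 2 to 5 in males at P21, and 20 to 27 and 0 to 1 in females at P21. Higher and lower log2 fold changes at P56 numbered 11 to 17 and 0 to 2 in males and 3 to 8 and 0 to 1 in females. The sign turned for Krt18 in males at P56 (-0.651 to 3.064) and females at P21 (-1.747 to 0.986), Krt71 in males at P21 (-0.321 to 0.023) and females at P21 (-0.115 to 0.219), Tagln3 in males at P21 (-0.114 to 0.009), and, in females at P21, Krt26 (-0.25 to 0.093), Myl9 (-0.033 to 0.253) and Tuba8 (-0.035 to 0.144). Without the choroid-marked libraries the sign also turned for Krt18 (0.986), Krt26 (0.093), Krt71 (-0.115), Myl9 (-0.0) and Tuba8 (-0.035) in females at P21, Tagln3 (0.005), Acta2 (0.079) and Myo5c (0.183) in males at P21, and Myo5c (0.759) in males at P56. The cause was not tested.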
